A study of Homo sapiens with 6 samples.

Results

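The genes described here are 32 human genes for amino acid synthesis, folate-bound one-carbon metabolism and amino acid transport. They were taken by name from the 58825 genes of the deposited tables and fall into 20 enzymes and 12 solute carrier (SLC) transporters. The enzymes were split into 9 of serine synthesis and folate one-carbon metabolism and 11 others. A filter on low counts kept 20295 genes for testing, among them 31 of the 32. The exception was SLC7A3, a carrier of arginine and lysine, with 0 counts in all 6 libraries, which allows up to 3 counts in each.

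RNA-seq was performed on NCI-H460, an established human lung cancer cell line grown in RPMI-1640 medium. All 6 libraries came from cells infected with a lentivirus that carried a short hairpin RNA (shRNA). By its label, the GFPkd group (n = 3) carried a hairpin against GFP, a jellyfish protein that serves as a control target. The study's text names only a control (NC) shRNA and does not mention GFP. In the PRMT5kd group (n = 3) the hairpin was directed against PRMT5, an arginine methyltransferase. According to the study's methods the knockdown cells were selected with puromycin as a stable population, and which PRMT5 hairpin was sequenced is not given in the labels. The study's text calls the 3 libraries of a group biological replicates, while neither it nor the labels say that each came from its own culture, so the p-values below measure the spread between these libraries, which may be partly technical. In a bulk library, fewer cells of a type and less RNA per cell cannot be told apart.

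Serine is made from the glycolytic intermediate 3-phosphoglycerate by PHGDH, PSAT1 and PSPH, and it gives a carbon unit to folate through the hydroxymethyltransferases SHMT1 in the cytosol and SHMT2 in mitochondria. The folate-bound units feed the synthesis of purines and thymidylate, and rapidly dividing tumor cells are known for high use of this route. Many of these genes, and several amino acid transporters, are known targets of the transcription factor ATF4, which acts when cells lack amino acids or misfold proteins.

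Promoter sequence is shown first, since ATF4 is known to act through a short element in several of these genes. RefSeq start sites on GRCh38.p14 were available for 24 of the 32 genes, in 43 windows. The RefSeq set used here held no window for PSPH, SHMT2, ALDH1L2, PYCR1, GPT2, BCAT2, SLC7A11 and SLC7A3, so these were not searched. The 250 bases before each start were searched on both strands for TGATGNAA, the core of the C/EBP-ATF response element, or its reverse complement TTNCATCA. No other motif was searched. A match stood before 5 of the 24 genes (20.8%), namely 4 of 14 enzymes and 1 of 10 transporters, and before 1061 of all 27305 genes of the RefSeq table (3.89%). The stretches of 30 bases around these matches are printed 5′ to 3′ on the strand of the gene, with the matching bases in capitals. 
ASNS: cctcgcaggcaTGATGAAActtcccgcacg
MTHFD1L: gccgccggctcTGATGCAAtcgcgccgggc
GOT1: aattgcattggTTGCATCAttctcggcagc
BCAT1: tgtcttcctgcTGATGCAAtccgctaggtc
SLC1A5: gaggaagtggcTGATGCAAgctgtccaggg
The ASNS stretch lies at chr7:97872458-97872487 on the minus strand, with the match 68 to 61 bases before 1 of its 2 RefSeq starts. The MTHFD1L stretch lies at chr6:150866346-150866375 on the plus strand. Its match stands 129 to 122 bases before a RefSeq start and 90 to 83 bases before another. The bases shortly after these starts were not found in any MTHFD1L transcript of GENCODE release 29. A further RefSeq start of MTHFD1L, whose following bases were found in such a transcript, has the match after it. The GOT1 stretch lies at chr10:99430804-99430833 on the minus strand, 198 to 191 bases before the start, and its match is on the strand opposite to the gene. The BCAT1 stretch, at chr12:24949131-24949160 on the minus strand, holds its match 48 to 41 bases before 1 of its 5 RefSeq starts. The SLC1A5 stretch, at chr19:46784893-46784922 on the minus strand, holds its match 97 to 90 bases before an internal start, and no match stands before the gene's outermost start. All 5 stretches also lie within an exon of the same gene in GENCODE release 29, whose transcripts can start further upstream. A match describes letters and not binding, and a window without one says nothing about the factor.

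The knockdown itself was visible in every library. PRMT5 stood at 143, 127 and 128 CPM (counts scaled to library size, by edgeR's TMM method) in GFPkd and at 45.8, 45.6 and 38.3 CPM in PRMT5kd, which is 32.6% of the control level (log2 fold change -1.62, SE 0.0943, edgeR adjusted p = 0.0063). Library totals ranged from 53531257 to 70518401 estimated counts. Keratins KRT8, KRT18 and KRT19 marked the cells as epithelial at 33.7 to 164 FPKM (fragments scaled for gene length and library size), whereas the epithelial surface markers EPCAM and CDH1 were at or below 0.52 FPKM. The 5 epithelial markers summed to 283 to 313 FPKM in GFPkd and to 264 to 276 FPKM in PRMT5kd, and KRT8 had a log2 fold change of -0.23 (unadjusted p = 0.00826, edgeR adjusted p = 0.251). The 5 endothelial markers summed to 1.36 to 1.48 FPKM in GFPkd and to 1.95 to 2.47 FPKM in PRMT5kd, with VWF and KDR listed at 0 in the 3 GFPkd libraries. All 4 endothelial markers tested were higher in every PRMT5kd library than in any GFPkd library. VWF, at 0.12 to 0.20 FPKM in PRMT5kd, passed edgeR's adjusted test (edgeR adjusted p = 0.0341), and PECAM1 did not (unadjusted p = 0.00205, edgeR adjusted p = 0.188). In DESeq2, fitted to the same counts, both VWF (DESeq2 adjusted p = 4.5e-11) and PECAM1 (DESeq2 adjusted p = 4.5e-04) passed. Fibroblast markers summed to 10.3 to 11.4 and 10.2 to 12.4 FPKM, with COL1A2 at 0 throughout, and blood cell markers to 1.20 to 1.55 and 1.39 to 1.81 FPKM, with CD3E at 0 throughout. Within the fibroblast list, COL3A1 (0.89 to 1.09 against 1.61 to 1.99 FPKM) and PDGFRB (0.40 to 0.48 against 0.66 to 0.77 FPKM) were higher in every PRMT5kd library. The part of these marker differences in the results below was not tested.

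In short, 12 of the 31 tested genes were higher in PRMT5kd at an unadjusted p under 0.05 and 0 were lower. The 12 were PHGDH, PSAT1 and PSPH of serine synthesis, SHMT2 and MTHFD2 of mitochondrial one-carbon metabolism, asparagine synthetase ASNS, cystathionine synthase CBS, and the transporters SLC6A9, SLC7A11, SLC38A1, SLC1A4 and SLC7A1. Their differences lay between 1.12-fold and 1.40-fold. The count was 7 without PRMT5kd replicate 1, and PHGDH, PSAT1, PSPH, MTHFD2, ASNS and SLC6A9 stayed under 0.05 whichever library was left out. Across all 20295 genes, 6.54% were higher and 6.29% lower at that threshold. Among the 9963 genes with a mean of at least 10 CPM, a range that held 30 of the 31 genes and the 12 named here, the shares were 7.46% and 9.84%.

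After Benjamini-Hochberg adjustment over all genes, edgeR's quasi-likelihood test called 0 of the 31 genes, with adjusted p-values from 0.110 to 0.995, in a table in which it called 0.069% of genes. DESeq2, fitted to the same counts, called 5 higher and 0 lower, against 1.81% of its genes called higher. The 5 were PSPH (DESeq2 adjusted p = 2.15e-04), PSAT1 (2.78e-04), SLC6A9 (0.0119), PHGDH (0.0204) and ASNS (0.0428). Every PRMT5kd library lay above every GFPkd library for 11 of the 31 genes and below for 1, ALDH18A1, while 11% and 10.7% of all tested genes were separated in those directions. Since the genes were picked with earlier results known, these counts carry no test of their own.

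**Figure D1:**
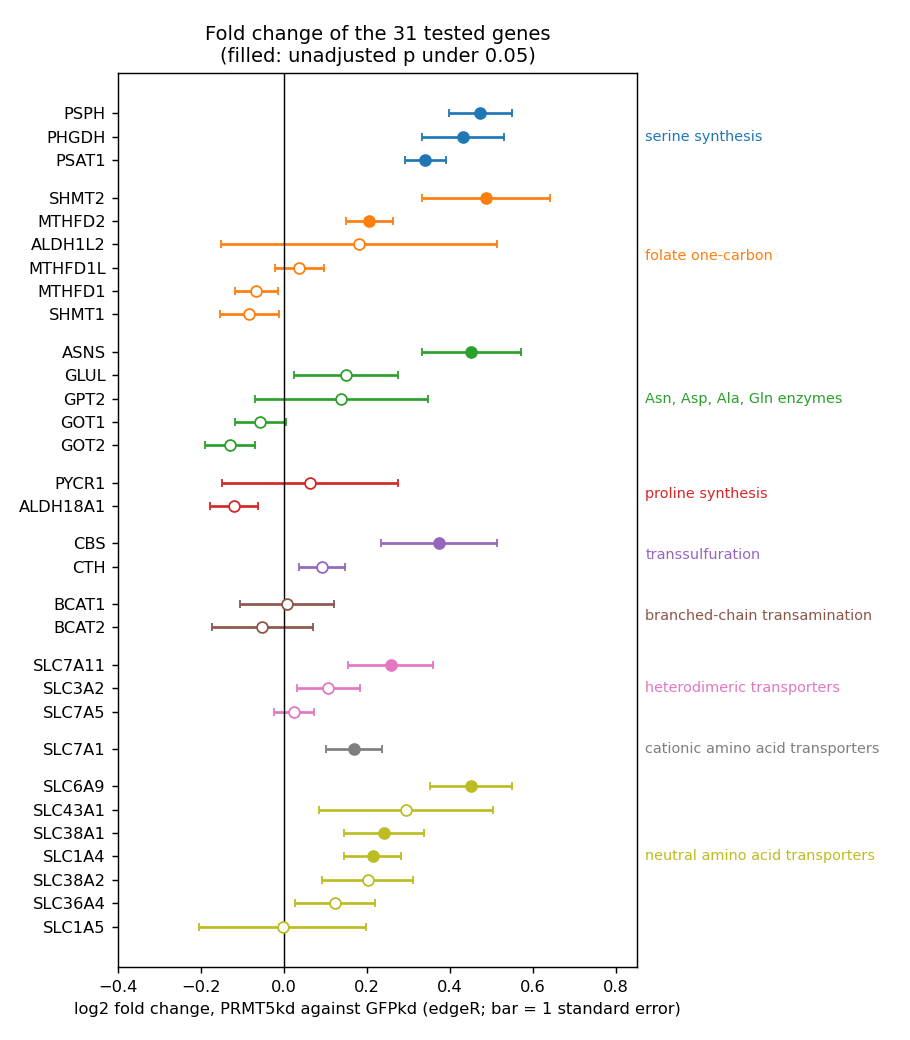
The log2 fold change of PRMT5kd against GFPkd (horizontal axis, edgeR, bars of 1 standard error) is plotted for each of the 31 tested genes, grouped by role, with filled points for an unadjusted p under 0.05. The 12 filled points lie to the right of 0, between 0.17 and 0.49, and the 7 genes to the left of 0 reach no further than -0.13.

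All 3 enzymes that make serine had an unadjusted p under 0.05 and PRMT5kd libraries above the GFPkd libraries, and none passed edgeR's adjusted test. Of all genes tested, 6.54% were higher at the unadjusted threshold and 11% had every PRMT5kd library above every GFPkd library. PHGDH, on chromosome 1 at 119648411 to 119744226 of GRCh38, commits 3-phosphoglycerate to the pathway. Its level was 146, 140 and 164 CPM in GFPkd and 205, 222 and 178 CPM in PRMT5kd. The groups did not overlap, with PRMT5kd3 the lowest of its group, and the log2 fold change was 0.43 (SE 0.0997, unadjusted p = 0.00358, edgeR adjusted p = 0.205). PSAT1, the transaminase of the next step, on chromosome 9 at 78297143 to 78330093, was the most strongly expressed enzyme of all 20, with a mean of 125 FPKM in GFPkd. It measured 317, 325 and 341 CPM in GFPkd and 414, 413 and 417 CPM in PRMT5kd. The PRMT5kd libraries were nearly level with one another (SD 2.0 CPM) and lay 1.27-fold above the controls (log2 fold change 0.34, SE 0.0502, unadjusted p = 2.72e-04, edgeR adjusted p = 0.110).

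PSPH, the phosphatase that releases serine, on chromosome 7 at 56011051 to 56051604, rested on lower counts. It was at 30.0, 28.2 and 31.4 CPM in GFPkd and at 42.2, 39.7 and 42.5 CPM in PRMT5kd. All PRMT5kd libraries were above all GFPkd libraries, by 1.39-fold (log2 fold change 0.47, SE 0.0762, unadjusted p = 4.68e-04, edgeR adjusted p = 0.128). A pseudogene copy, PSPHP1, held counts equal to 7.83% of those of PSPH, and with these added the log2 fold change was 0.42 (edgeR adjusted p = 0.159). For the 3 serine synthesis genes the median log2 fold change was 0.43, beside 0.0075 over all genes tested and -0.0169 over genes of at least 10 CPM.

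In folate one-carbon metabolism the mitochondrial and cytosolic enzymes stood on different sides of 0, without any of the 6 passing the adjusted test. SHMT2, the mitochondrial hydroxymethyltransferase on chromosome 12 at 57229327 to 57234935, was at 143, 216 and 151 CPM in GFPkd and at 244, 244 and 227 CPM in PRMT5kd. GFPkd2 was far above the other controls yet still below every PRMT5kd library, and the log2 fold change of 0.49 was the highest of the 31 genes (SE 0.155, unadjusted p = 0.0168, edgeR adjusted p = 0.297). Leaving out GFPkd1 or GFPkd3 took the unadjusted p of SHMT2 past 0.05, with the direction kept. MTHFD2, the mitochondrial dehydrogenase and cyclohydrolase on chromosome 2 at 74198562 to 74217565, measured 384, 407 and 418 CPM in GFPkd and 445, 476 and 473 CPM in PRMT5kd. These did not overlap either, and MTHFD2 was 1.15-fold higher (log2 fold change 0.21, SE 0.0568, unadjusted p = 0.00876, edgeR adjusted p = 0.253).

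MTHFD1L, the mitochondrial formate-tetrahydrofolate ligase, had a log2 fold change of only 0.04. ALDH1L2, the mitochondrial 10-formyltetrahydrofolate dehydrogenase, was decided by a single library. It was at 47.2, 53.6 and 66.7 CPM in GFPkd and at 82.5, 75.1 and 32.2 CPM in PRMT5kd. PRMT5kd3 was thus the lowest of all 6 libraries while the other PRMT5kd libraries were the highest, and the log2 fold change was 0.18 with an SE of 0.333. The log2 fold change of ALDH1L2 was 0.50 without PRMT5kd replicate 3 and -0.06 without PRMT5kd replicate 1. The cytosolic enzymes SHMT1 and MTHFD1, the latter carrying several folate activities in a single protein, had log2 fold changes of -0.08 (edgeR adjusted p = 0.663) and -0.07 (edgeR adjusted p = 0.632). In sum, 4 of 4 mitochondrial genes had a fold change above 0 (median 0.19) and 2 of 2 cytosolic genes one below 0 (median -0.08). Over all genes tested, 10385 of 20295 had a fold change above 0, and 4595 of 9963 with a mean of at least 10 CPM. Only SHMT2 and MTHFD2 of the 6 had an unadjusted p under 0.05, so the signs of the others carry little weight.

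A ratio of 2 genes within a library does not depend on how the libraries are scaled. The FPKM ratio of SHMT2 to SHMT1 was 2.57, 4.31 and 2.98 in GFPkd and 4.96, 4.73 and 4.84 in PRMT5kd. The ratio of MTHFD2 to MTHFD1 was 2.70, 2.88 and 3.15 in GFPkd and 3.32, 3.63 and 3.59 in PRMT5kd. The ratio of MTHFD1L to MTHFD1 was 0.606, 0.618 and 0.621 in GFPkd and 0.651, 0.692 and 0.639 in PRMT5kd. The mitochondrial enzyme was therefore higher relative to its cytosolic counterpart in each PRMT5kd library than in any GFPkd library, by 1.51-fold, 1.21-fold and 1.07-fold. Each of these 3 comparisons had a two-sided exact permutation p of 0.10, the smallest that 3 libraries against 3 can give, and an adjusted p of 0.30 over the 9 ratios compared. MTHFD1 is shared by the ratios with MTHFD2 and MTHFD1L. The other 6 ratios overlapped between the groups, with exact permutation p-values from 0.30 to 0.70. They were the aspartate transaminases GOT2 to GOT1, the branched-chain transaminases BCAT2 to BCAT1, SLC7A11 and SLC7A5 to their shared heavy chain SLC3A2, SLC1A5 to SLC1A4 and SLC38A2 to SLC38A1.

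**Figure D2:**
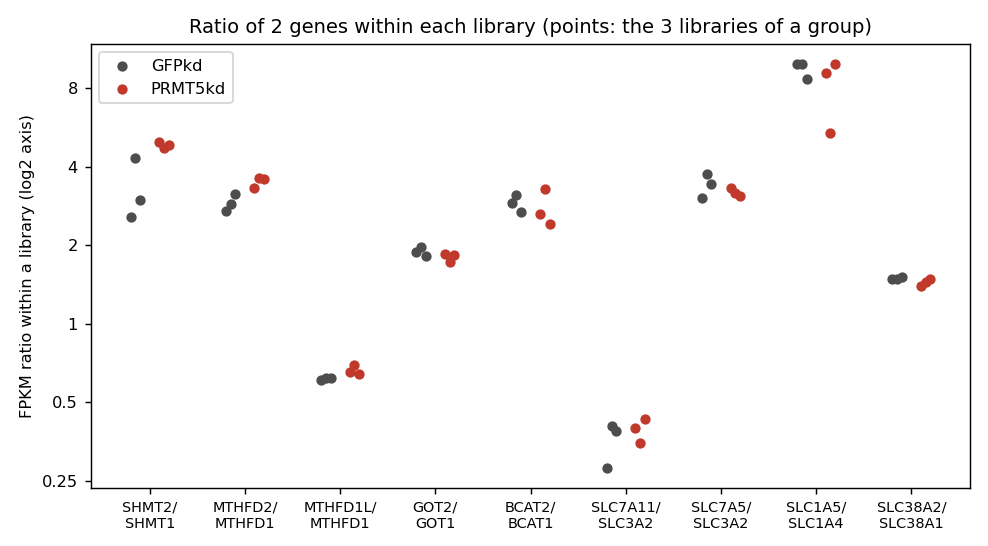
Each point is the FPKM ratio of 2 genes in a single library (vertical axis, log2 scale), in grey for the 3 GFPkd and red for the 3 PRMT5kd libraries, for the 9 pairs on the horizontal axis. The groups do not overlap for SHMT2/SHMT1, MTHFD2/MTHFD1 and MTHFD1L/MTHFD1 and overlap for the other 6 pairs, and the lowest SLC1A5/SLC1A4 ratio, 5.39, belongs to PRMT5kd2.

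Among the 11 other enzymes, only ASNS and CBS had an unadjusted p under 0.05, and the median log2 fold change was 0.06. Over all genes tested, 6.54% were higher and 6.29% lower at that threshold. ASNS, which makes asparagine from aspartate and glutamine, lies on chromosome 7 at 97852118 to 97872542 and carries the first of the promoter matches printed above. It measured 112, 102 and 117 CPM in GFPkd and 179, 136 and 138 CPM in PRMT5kd. PRMT5kd1 stood apart at the top, but no library overlapped between the groups, and ASNS was 1.37-fold higher (log2 fold change 0.45, SE 0.120, unadjusted p = 0.00731, edgeR adjusted p = 0.244). Another annotated gene, AC079781.5, shares exon bases with ASNS on the same strand, and it held 628, 412 and 145 counts in GFPkd and 130, 1510 and 1264 in PRMT5kd. It was thus low in PRMT5kd1, where ASNS was high, and with its counts added ASNS read 122, 108 and 119 CPM against 182, 157 and 160 CPM. The log2 fold change then was 0.52 (SE 0.0807, unadjusted p = 3.89e-04, edgeR adjusted p = 0.118), an alternative chosen after the values were seen.

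CBS, which joins homocysteine with serine, was at 29.6, 24.4 and 24.4 CPM in GFPkd and at 38.4, 28.2 and 35.2 CPM in PRMT5kd. PRMT5kd2 fell within the range of the controls (log2 fold change 0.37, SE 0.140, unadjusted p = 0.0326, edgeR adjusted p = 0.342). These values are uncertain, because the near-identical copy CBSL held counts equal to 73.2% of those of CBS and reads could be assigned to either. Summed with CBSL, the level was 39.7, 45.1 and 48.4 CPM in GFPkd and 58.1, 51.0 and 69.8 CPM in PRMT5kd. The groups no longer overlapped on the sum, with a log2 fold change of 0.43 (SE 0.132, unadjusted p = 0.0146, edgeR adjusted p = 0.288). CTH, which cleaves cystathionine to cysteine, was at 72.1, 69.3 and 70 CPM in GFPkd and 75.1, 76.2 and 74.1 CPM in PRMT5kd. It was separated by a small margin (log2 fold change 0.09, SE 0.0553, unadjusted p = 0.141, edgeR adjusted p = 0.531).

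The enzymes of aspartate, proline and branched-chain amino acid metabolism differed little. GOT2, the mitochondrial aspartate transaminase, was at 412, 412 and 375 CPM in GFPkd and at 376, 369 and 351 CPM in PRMT5kd. The groups met at GFPkd3 and PRMT5kd1, and the log2 fold change of -0.13 was the lowest of the 31 genes (SE 0.0601, unadjusted p = 0.0657, edgeR adjusted p = 0.417). ALDH18A1, which starts proline synthesis from glutamate, was at 219, 212 and 204 CPM in GFPkd and at 192, 204 and 188 CPM in PRMT5kd. GFPkd3 and PRMT5kd2 were level to 3 digits and the groups just separated (log2 fold change -0.12, SE 0.0582, unadjusted p = 0.0764, edgeR adjusted p = 0.434). PYCR1, the last enzyme of proline synthesis, had 137 CPM in PRMT5kd1 and 84.8 to 117 CPM in the other 5 libraries, with a log2 fold change of 0.06 and an SE of 0.212. BCAT2, the mitochondrial branched-chain transaminase, was at 30.6, 37.4 and 37.1 CPM in GFPkd and at 32.4, 38.3 and 30.6 CPM in PRMT5kd. The ranges of BCAT2 nearly coincided (log2 fold change -0.05, SE 0.122, unadjusted p = 0.675, edgeR adjusted p = 0.890). The log2 fold changes of the remaining enzymes were 0.15 for GLUL, which makes glutamine, 0.14 for GPT2, the mitochondrial alanine transaminase, 0.01 for cytosolic BCAT1 and -0.06 for cytosolic GOT1, and all overlapped between the groups.

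**Figure D3:**
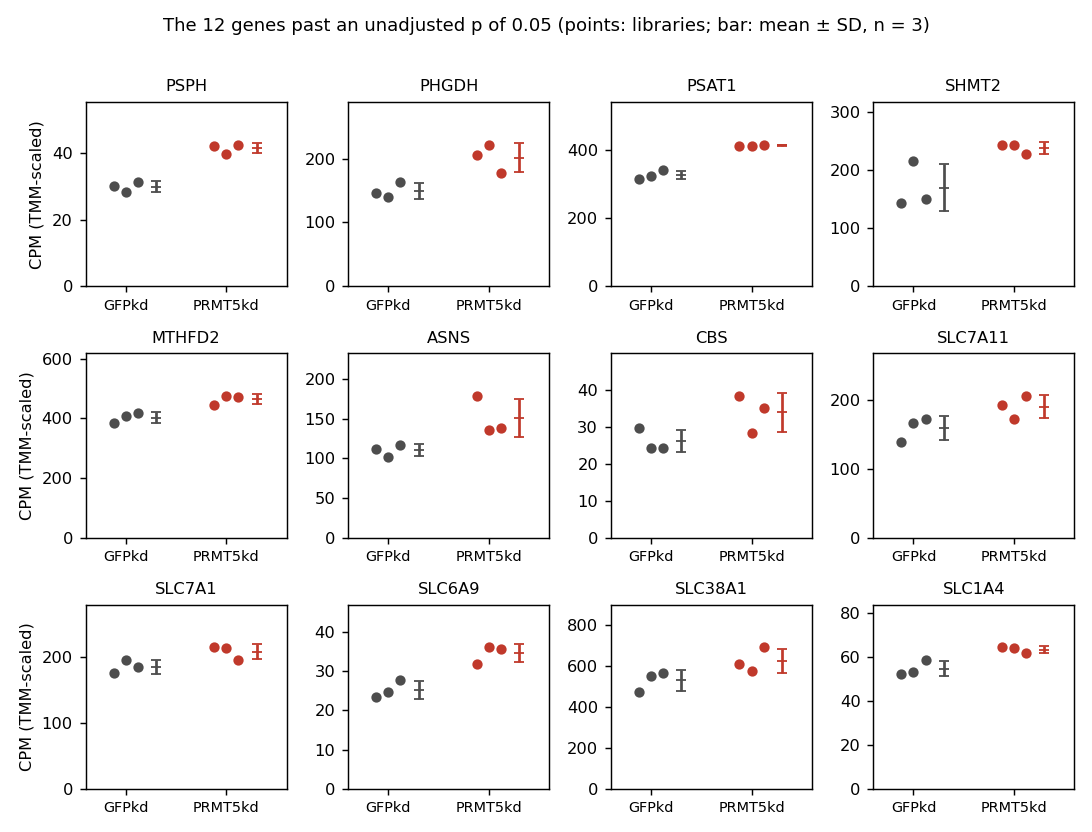
Each panel gives the TMM-scaled CPM (vertical axis from 0) of a gene with an unadjusted p under 0.05, with a point per library and the mean ± SD (n = 3) beside each group. The groups overlap for CBS and SLC7A1 and are separate for the other 10 genes. PSAT1 lies at 413 to 417 CPM in PRMT5kd, and 1 GFPkd library of SHMT2 lies at 216 CPM, close to the PRMT5kd libraries.

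Of the 11 transporters tested, 10 had a fold change above 0 and 5 an unadjusted p under 0.05, with a median log2 fold change of 0.20. At that threshold 6.54% of all genes tested were higher, and 7.46% of those with a mean of at least 10 CPM. Over all genes tested, 10385 of 20295 had a fold change above 0, and 4595 of 9963 with a mean of at least 10 CPM. Some of the 10 were close to 0, such as SLC7A5 at 0.02 (SE 0.0493). SLC6A9, a sodium-coupled glycine carrier on chromosome 1 at 43991500 to 44031467, differed the most. It was at 23.3, 24.7 and 27.8 CPM in GFPkd and at 31.9, 36.1 and 35.5 CPM in PRMT5kd. All PRMT5kd libraries were above the controls, by 1.37-fold (log2 fold change 0.45, SE 0.0986, unadjusted p = 0.00264, edgeR adjusted p = 0.196). SLC1A4, an exchanger of alanine, serine and cysteine, was at 52.4, 53.1 and 58.5 CPM in GFPkd and at 64.5, 63.9 and 61.8 CPM in PRMT5kd. Its groups did not overlap (log2 fold change 0.21, SE 0.0687, unadjusted p = 0.0176, edgeR adjusted p = 0.301).

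SLC38A1, a sodium-coupled glutamine carrier, was at 472, 549 and 565 CPM in GFPkd and at 607, 576 and 691 CPM in PRMT5kd. PRMT5kd2 lay just above the highest control (log2 fold change 0.24, SE 0.0954, unadjusted p = 0.0401, edgeR adjusted p = 0.364). The related carrier SLC38A2 was at 453, 526 and 555 CPM in GFPkd and at 554, 538 and 671 CPM in PRMT5kd. Its groups overlapped, with GFPkd1 low and PRMT5kd3 high in both SLC38A1 and SLC38A2 (log2 fold change 0.20, SE 0.110, unadjusted p = 0.112, edgeR adjusted p = 0.489). SLC7A1, a carrier of arginine and lysine, was at 175, 196 and 185 CPM in GFPkd and at 215, 214 and 195 CPM in PRMT5kd. GFPkd2 and PRMT5kd3 met (log2 fold change 0.17, SE 0.0678, unadjusted p = 0.0428, edgeR adjusted p = 0.371), and with the library numbers as a block the unadjusted p of SLC7A1 was above 0.05.

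The heterodimeric exchangers share the heavy chain SLC3A2. SLC7A11, the light chain of the cystine/glutamate antiporter, was at 139, 167 and 172 CPM in GFPkd and at 192, 173 and 206 CPM in PRMT5kd. GFPkd3 and PRMT5kd2 were almost level, and the groups just separated (log2 fold change 0.26, SE 0.103, unadjusted p = 0.0424, edgeR adjusted p = 0.369). SLC7A5, the light chain of LAT1, which exchanges large neutral amino acids, had the highest mean level of the 32 genes in GFPkd, at 132 ± 4.09 FPKM (SD, n = 3), overlapping with PSAT1 at 125 ± 7.33 FPKM, whereas in PRMT5kd PSAT1 was higher in every library, at 162 to 166 FPKM against 135 to 145 FPKM. It was at 743, 762 and 753 CPM in GFPkd and at 787, 775 and 733 CPM in PRMT5kd. The PRMT5kd libraries of SLC7A5 spanned the control range (log2 fold change 0.02, SE 0.0493, unadjusted p = 0.649, edgeR adjusted p = 0.877). SLC3A2 itself had a log2 fold change of 0.11, with overlapping groups.

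SLC1A5, an exchanger of glutamine and other neutral amino acids, carries a promoter match but was not separated. It was at 248, 251 and 242 CPM in GFPkd and at 282, 165 and 292 CPM in PRMT5kd. PRMT5kd2 was thus the lowest library and the other PRMT5kd libraries the highest, and the log2 fold change of -0.0041 had an SE of 0.201. Without PRMT5kd replicate 2 it was 0.22. SLC36A4, a carrier of proline and tryptophan, had a log2 fold change of 0.12, and SLC43A1, a carrier of large neutral amino acids at a mean of only 0.76 FPKM in GFPkd, one of 0.29 with an SE of 0.210. Both overlapped between the groups. Of the 5 genes with a promoter match, the log2 fold changes were 0.45 for ASNS, 0.04 for MTHFD1L, 0.01 for BCAT1, -0.0041 for SLC1A5 and -0.06 for GOT1.

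When the 9 serine and one-carbon enzymes were set against the transporters, 5 of 9 and 5 of 11 had an unadjusted p under 0.05. All of these were higher, as were 6.54% of all genes tested at that threshold. The median log2 fold changes were 0.21 for these enzymes and 0.20 for the transporters. The mean log2 CPM differed, enzymes minus transporters, by 0.24, 0.24 and 0.17 in GFPkd and by 0.30, 0.40 and 0.03 in PRMT5kd. PRMT5kd3 was below the controls and the other PRMT5kd libraries above, so the groups overlapped. For the 3 serine synthesis genes alone, a subset looked at after their values were seen, the difference to the transporters was 0.03, -0.08 and -0.02 in GFPkd and 0.22, 0.31 and 0.08 in PRMT5kd. These did not overlap. The summed FPKM of all 32 genes was 929, 987 and 1010 in GFPkd and 1140, 1080 and 1120 in PRMT5kd, or 0.279% to 0.314% and 0.331% to 0.361% of all FPKM in a library.

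**Figure D4:**
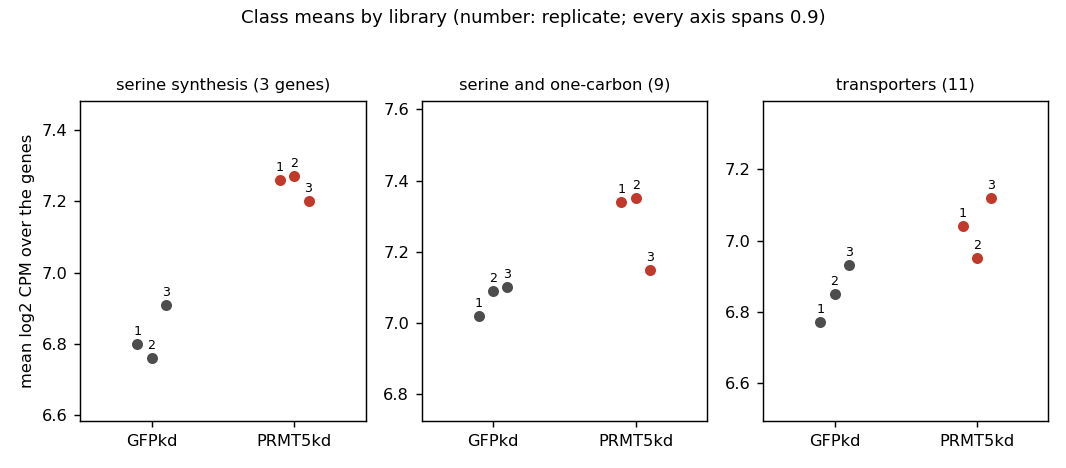
The mean log2 CPM (vertical axes, each spanning 0.9 log2 units) of the 3 serine synthesis genes, the 9 serine and one-carbon enzymes and the 11 tested transporters is plotted for every library, numbered by replicate. Serine synthesis lies at 6.76 to 6.91 in GFPkd and 7.20 to 7.27 in PRMT5kd, and PRMT5kd3 is the lowest PRMT5kd library for the 9 enzymes, at 7.15, but the highest for the transporters, at 7.12.

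In the controls the levels of the 32 genes ran from SLC7A5 (132 FPKM) through PSAT1 (125), GOT2 (89.2) and MTHFD2 (70.1) down to SLC43A1 (0.76) and SLC7A3 (listed at 0). Between neighbours in this order the GFPkd libraries were separate in 13 of 31 pairs, and the others did not differ beyond their spread. The serine synthesis enzymes were far from equal, with mean levels of 125 FPKM for PSAT1, 13.6 FPKM for PHGDH and 9.06 FPKM for PSPH.

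Genes of the same pathways outside the 32 are given by their counts. Over all genes tested, 6.54% were higher and 6.29% lower at an unadjusted p under 0.05. With a mean of at least 10 CPM the shares were 7.46% and 9.84%. Of 24 further serine, glycine and folate genes, 23 were tested, and 1 was higher and 2 were lower at an unadjusted p under 0.05 (median log2 fold change 0.06). AMT, of the glycine cleavage system, had a log2 fold change of 1.39 on levels under 1.4 CPM and overlapping groups, the folate receptor FOLR1 one of -0.18, and FPGS, which adds glutamates to folate, one of -0.28. Of 21 other genes of amino acid synthesis and breakdown, 20 were tested, and 0 were higher and 5 lower at that threshold (median -0.04). OAT, which links ornithine to proline synthesis, had a log2 fold change of -0.27, and GCLM and GCLC, the subunits of the enzyme that starts glutathione synthesis, both had one of -0.19. ASRGL1, an asparaginase, had one of -0.52 with overlapping groups. Of 26 other amino acid transporters, 24 were tested, with 3 higher and 1 lower (median -0.02). SLC7A7, a light chain for cationic and neutral amino acids, had a log2 fold change of 0.52, SLC6A15, a carrier of neutral amino acids, one of 0.22, the glutamate carrier SLC1A3 one of -0.41 and the arginine carrier SLC7A2 one of 1.09, the latter with PRMT5kd1 at 576 CPM and the other PRMT5kd libraries at 194 and 210 CPM. edgeR's adjusted test called 0 genes of these 3 lists, and DESeq2 called 0 as well.

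ATF4 and 10 other genes formed the last list, most of them known for the response to amino acid shortage and misfolded proteins. MYC, also in the list, was at 13.3, 232 and 15.5 CPM in GFPkd and at 14.9, 10.8 and 298 CPM in PRMT5kd. A single library of each group thus stood far above the others. ATF4 mRNA was at 509, 499 and 497 CPM in GFPkd and at 535, 517 and 508 CPM in PRMT5kd, with a log2 fold change of 0.05 (SE 0.0473, unadjusted p = 0.309, edgeR adjusted p = 0.691). DDIT3, a stress-response transcription factor also called CHOP, rose from 15, 17.1 and 18.9 CPM to 40.3, 40.5 and 42.5 CPM (log2 fold change 1.28, edgeR adjusted p = 0.0204), and AC022506.1, which shares exon bases with it, held 1 count in each library. NUPR1, a stress-induced nuclear protein, rose from 10.8, 11.7 and 12.2 CPM to 21.7, 25.4 and 26.8 CPM (log2 fold change 1.09, edgeR adjusted p = 0.0472). Both were thus raised more than any of the 31 amino acid genes. SESN2 and CHAC1 were higher with log2 fold changes of 0.50 and 0.58, at edgeR adjusted p-values of 0.113 and 0.196. Their DESeq2 adjusted p-values were 8.49e-05 and 0.00741. After adjustment, DESeq2 called 4 of the 11 higher and 0 lower, against 1.81% of its genes called higher. In edgeR's test, 6 of the 11 were higher and 1 lower at an unadjusted p under 0.05, with a median log2 fold change of 0.34. Over all genes tested, the shares were 6.54% and 6.29%. The lower gene was CEBPB, with separate groups (log2 fold change -0.15, unadjusted p = 0.0249, edgeR adjusted p = 0.319).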

How the data were processed

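The authors deposited whole-number estimated counts per gene and FPKM values, which are scaled for transcript length and library size. The submitters' processing notes name cutadapt 1.9, HISAT2 2.0.4, StringTie 1.3.4d and GRCh38, whereas the study's methods name a mouse build. The gene identifiers are human, and 58552 of 58825 matched GENCODE release 29. The use of strand in counting is not given in the sources used here.

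Counts were scaled by TMM, filtered with filterByExpr by group and tested with edgeR 4.0.16 (glmQLFit, glmQLFTest, R 4.3.3) on all 6 libraries, with Benjamini-Hochberg adjustment over 20295 genes. SEs were derived from the F statistic. DESeq2 1.42.0 and limma 3.58.1, the latter on log2(FPKM + 1), were alternatives, among 19 in all plus counts summed with a copy or overlapping gene, added after the data were seen. FPKM ratios were compared by exact permutation tests. Basic fits with edgeR, DESeq2 and limma were checked on simulated data, but not every alternative was. Libraries of a group differed by far more than counting noise.

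The 32 genes and the other lists were chosen with earlier results of these data known. Full values are given for genes with an unadjusted p under 0.05 and for the gene of highest FPKM in each role. Of the other lists, up to 4 genes with the smallest p are named, besides ATF4, MYC, CEBPB and cell type markers.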

Additional observations from a re-analysis of the deposited data

How the results depend on the processing

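The 12 genes with an unadjusted p under 0.05 kept their direction under all 19 alternatives, and PHGDH, PSAT1, PSPH, MTHFD2, ASNS and SLC6A9 also that threshold. With 1 library left out, SLC7A11 and SLC38A1 missed it without GFPkd1, GFPkd2, PRMT5kd1 or PRMT5kd3. CBS missed it without GFPkd2, GFPkd3, PRMT5kd1 or PRMT5kd3, and SLC7A1 without GFPkd1, GFPkd3, PRMT5kd1 or PRMT5kd2. SHMT2 missed it without GFPkd1 or GFPkd3, and SLC1A4 without GFPkd2 or PRMT5kd1. Among the other alternatives, CBS, SLC7A11 and SLC38A1 missed it in the linear model per gene on FPKM. SLC7A1 missed it with DESeq2, with the library numbers as a block, and with the length trend removed, with or without that block. SLC1A4 missed it with the length trend removed together with the block. The number of the 31 genes higher at that threshold ranged from 7 to 12 when 1 library was left out (7 without PRMT5kd replicate 1). Over all 19 alternatives it ranged from 7 to 14, with 14 reached only by limma on FPKM, where more of all genes were also called higher. The number lower ranged from 0 to 1 (1 without GFPkd replicate 3). DESeq2 called 5 genes higher after adjustment. With the replicate block, PRMT5 had a log2 fold change of -1.62 and an adjusted p of 0.144, with the length trend removed as well -1.60, and in a linear model per gene on FPKM -1.49, no longer past the adjusted threshold. The block called 0 genes of the whole table after adjustment and 12 of the 31 at the unadjusted threshold. Paired by number, deviations from the group means correlated at 0.0012, -0.039 and 0.064. GFPkd1 correlated best with PRMT5kd2, and GFPkd3 with PRMT5kd3. The labels link the libraries only by number, and a batch or culture shared by some of them could be missed by these correlations. Left-out libraries moved the median log2 fold change of serine and one-carbon enzymes between 0.17 and 0.34 (0.33 without GFPkd replicate 3, 0.34 without PRMT5kd replicate 3) and that of all enzymes between 0.0326 and 0.158 (lowest without GFPkd replicate 1).

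Signs turned for 7 genes and 3 ratios. Leaving out 1 library gave log2 fold changes of -0.0575 to 0.496 for ALDH1L2, -0.205 to 0.203 for PYCR1, -0.0525 to 0.398 for GPT2, -0.0852 to 0.112 for BCAT1, -0.155 to 0.0117 for BCAT2 and -0.146 to 0.216 for SLC1A5. It gave log2 ratio differences of -0.197 to 0.0254 for BCAT2/BCAT1, -0.0189 to 0.248 for SLC7A11/SLC3A2 and -0.429 to 0.0069 for SLC1A5/SLC1A4. On FPKM, the fold change was 0.0005 for GOT1, 0.0050 to 0.0061 for BCAT2 and 0.0104 to 0.0110 for SLC1A5. Without the length trend it was -0.0635 for BCAT1 (-0.0589 with the replicate block) and 0.0220 for SLC1A5, which also read 0.0466 on library totals and 0.0010 above a mean of 1 CPM. Unadjusted calls were 1328 higher and 1277 lower of 20295 genes with TMM, and 1874 and 815 of the same number on library totals. By limma on FPKM they were 1549 and 760 of 14707 genes. The causes were not tested. The precision is limited by 3 libraries a group.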
